A study of Mus musculus with 12 samples.

Results

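The 34 genes described here mark cardiac macrophages and antigen presentation in the left ventricle. They were chosen by symbol, as rows of the deposited raw count table whose Ensembl identifier has a member symbol in GENCODE M21, and they are 34 of the 26921 genes in that table. Left ventricular RNA of mice aged 16 weeks was sequenced, with 6 libraries labelled WT and 6 labelled cmGch1 KO. Every animal carried Gch1 flox/flox alleles. WT animals carried no Cre, and cmGch1 KO animals were heterozygous for Cre recombinase driven by α-MHC, a promoter that works in cardiomyocytes. Libraries with Cre but without floxed Gch1 were not analysed here, so Cre and the loss of Gch1 cannot be told apart. Gch1 encodes GTP cyclohydrolase 1, the rate-limiting enzyme of tetrahydrobiopterin synthesis.

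Macrophages are the most abundant leukocytes of the healthy heart. Resident macrophages, marked by Lyve1, Timd4 and Folr2, largely maintain themselves by local division, whereas cells marked by Ccr2 and high Ly6c2 derive from circulating monocytes. Macrophages take up proteins and dying cells, cut them in lysosomes, and load peptides on MHC class II molecules for CD4+ T cells. The invariant chain, encoded by Cd74, guards the class II groove until cathepsin S, encoded by Ctss, cleaves it.

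Totals lay between 19921398 and 37917806 counts per library, and 3 counts corresponded to 0.0828 to 0.139 cpm (counts scaled to library size and TMM factor), a floor that covers counting error only. Gch1 fell from 10.7 ± 0.974 cpm (SD, n = 6) in WT to 5.48 ± 0.855 cpm (n = 6), with every cmGch1 KO library below every WT library (edgeR's quasi-likelihood test, adjusted p = 0.000688). The libraries cmGch1 KO replicates 2 and 3 stood apart, with 86.7 and 99 cpm of Xist and 0 counts of 4 Y-linked genes, whereas the other 10 libraries had at most 0.234 cpm of Xist and at least 167 cpm of Y-linked genes. The labels give no sex. According to the methods of the study, both sexes were used unless stated otherwise, and mice were matched for age and sex. No WT library shared this pattern of Xist and Y-linked genes, so it is partly confounded with genotype. The libraries cmGch1 KO replicates 2 and 3 also had the lowest share of mitochondrial counts (14.9% and 16.1%, against 18.3% to 22.9%). Results were therefore also computed on the 6 WT and the other 4 cmGch1 KO libraries, called Xist-low below. WT libraries had 23061 ± 2880 cpm of the cardiomyocyte gene Myh6 and cmGch1 KO libraries 20297 ± 4390. Myh6 marks cardiac muscle and not the ventricle alone, and the atrial marker Myl7 spanned 3.24 to 120 cpm in WT libraries.

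Most of the genes had slightly higher means in cmGch1 KO ventricles, and few passed the test. Of the 34 genes, 28 had over 3 cpm in at least 6 libraries and were tested together with all other such genes by the quasi-likelihood test of edgeR, with p adjusted after Benjamini-Hochberg. A further 5 genes (Timd4, Fcgr1, Trem2, Lgals3 and Aif1) were measured only in the fit with the looser filterByExpr filter, and Ly6c2 passed neither filter. Of the 28 tested genes, 26 had over 3 cpm in all 6 WT libraries. The exceptions were Ccr2 (2 WT libraries) and Cx3cr1 (4), which reached 6 libraries only with those of cmGch1 KO. Ptprc, Ctss and Laptm5 rose at an adjusted p under 0.05, and 0 of the 28 fell. The same call was made higher for 0.677% of all 11225 tested genes. At an unadjusted p under 0.05, 15 of the 28 were higher and 0 lower, against 7.01% and 4.51% of all tested genes. The log2 fold change was positive for 26 of the 28, the exceptions being Cd163 and Mertk, and its median was 0.29, against -0.01 over all tested genes. In the looser fit, where 0.607% of 14666 genes were called higher, none of the 5 added genes was called, and 2 of them were higher at an unadjusted p under 0.05. In whole ventricle, more cells of a type and more RNA per cell cannot be told apart.

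**Figure D1:**
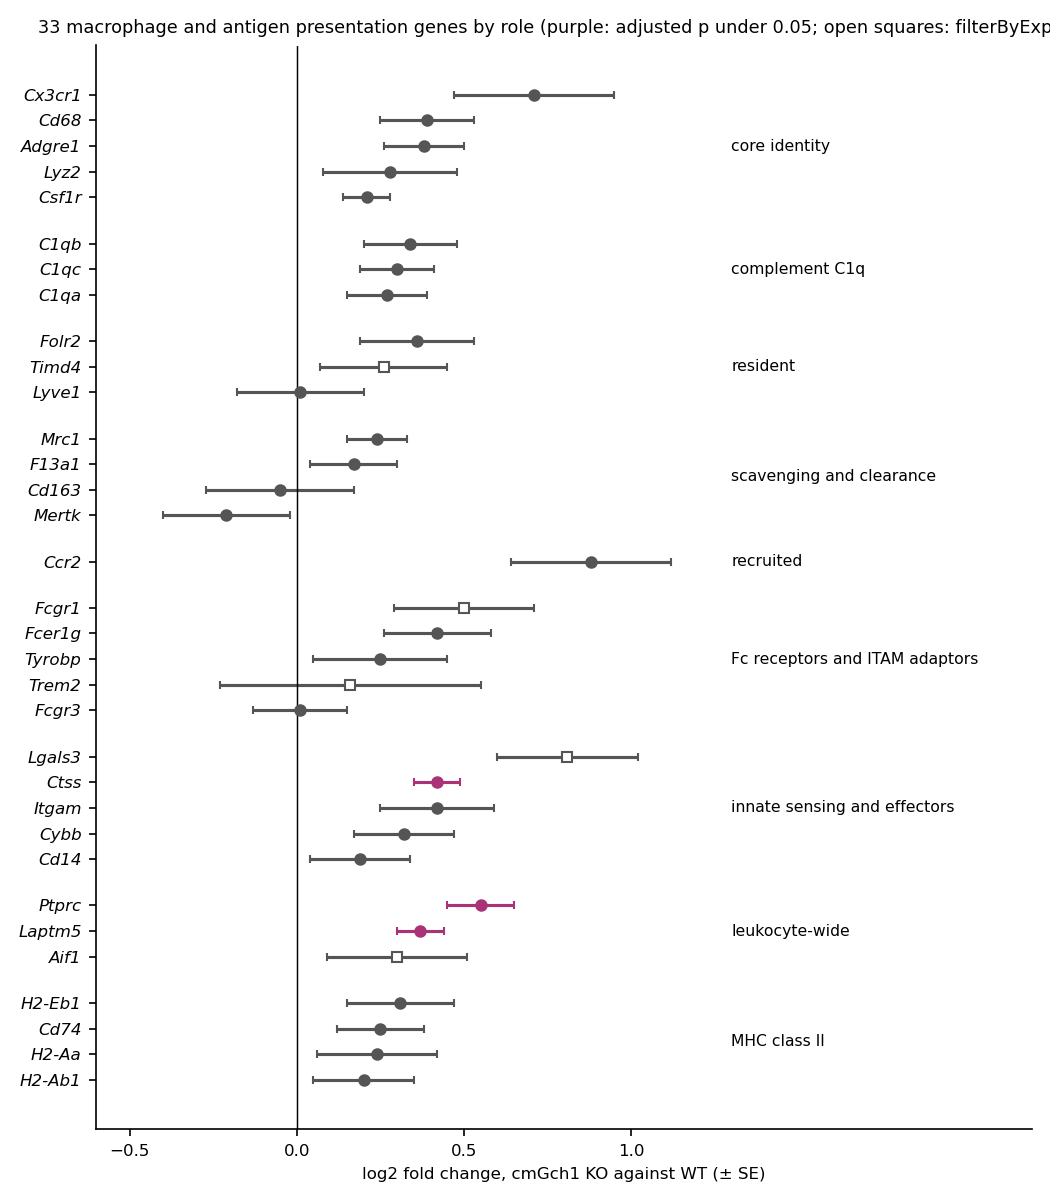
Log2 fold change between cmGch1 KO and WT (x axis, bars ± SE, n = 6 libraries a genotype) for 33 genes grouped by role (y axis); Ly6c2 is not shown. Purple points are the 3 genes with an adjusted p under 0.05, and open squares are the 5 genes measured only with filterByExpr; Ccr2, at 0.88, has the highest value and Mertk, at -0.21, the lowest.

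The 3 genes that rose are known to be expressed beyond macrophages: Ptprc encodes the pan-leukocyte phosphatase CD45, Laptm5 a lysosomal membrane protein of haematopoietic cells, and Ctss the class II processing protease cathepsin S. These were also the 3 members for which every cmGch1 KO library lay above every WT library, which held for 1.07% of all tested genes. Ctss ranked 43 among the 11225 tested genes by p, Ptprc 55 and Laptm5 70.

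Ptprc ranged from 5.59 to 7.81 cpm in WT (median 6.21) and from 8.58 to 10.3 cpm in cmGch1 KO (median 9.1). Its log2 fold change was 0.55 ± 0.10 (SE), with an adjusted p of 0.0116. The lowest cmGch1 KO library was thus above the highest WT library, replicate 5. Ctss ranged from 13.4 to 17.6 cpm in WT (median 15.6) and from 20.4 to 21.8 cpm in cmGch1 KO (median 20.9), with a log2 fold change of 0.42 ± 0.07 and an adjusted p of 0.0086. The cmGch1 KO libraries lay close together, with a coefficient of variation of 2.59%, against 9.25% in WT. Laptm5 ranged from 15.8 to 19.3 cpm in WT (median 17.3) and from 20.0 to 23.6 cpm in cmGch1 KO (median 22.5), with a log2 fold change of 0.37 ± 0.07 and an adjusted p of 0.0162. For Laptm5 the gap between genotypes was narrow, from 19.3 cpm in WT replicate 6 to 20.0 cpm in cmGch1 KO replicate 1. An exact permutation test on cpm, two-sided, gave p = 0.00216 for each of the 3 genes, the smallest that 6 against 6 libraries allow. Any gene without overlap between genotypes gets this p, so it adds nothing to the ranges above.

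Among the Xist-low libraries the 3 differences were of the same size, at 0.55 ± 0.11 for Ptprc, 0.43 ± 0.08 for Ctss and 0.37 ± 0.08 for Laptm5. With 4 cmGch1 KO libraries none passed the threshold (adjusted p = 0.0636, 0.0551 and 0.106). Laptm5 also missed it without WT replicate 5 (adjusted p = 0.0531) and without cmGch1 KO replicate 3 (0.0529), whereas Ptprc and Ctss passed it without any 1 of the 12 libraries.

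**Figure D2:**
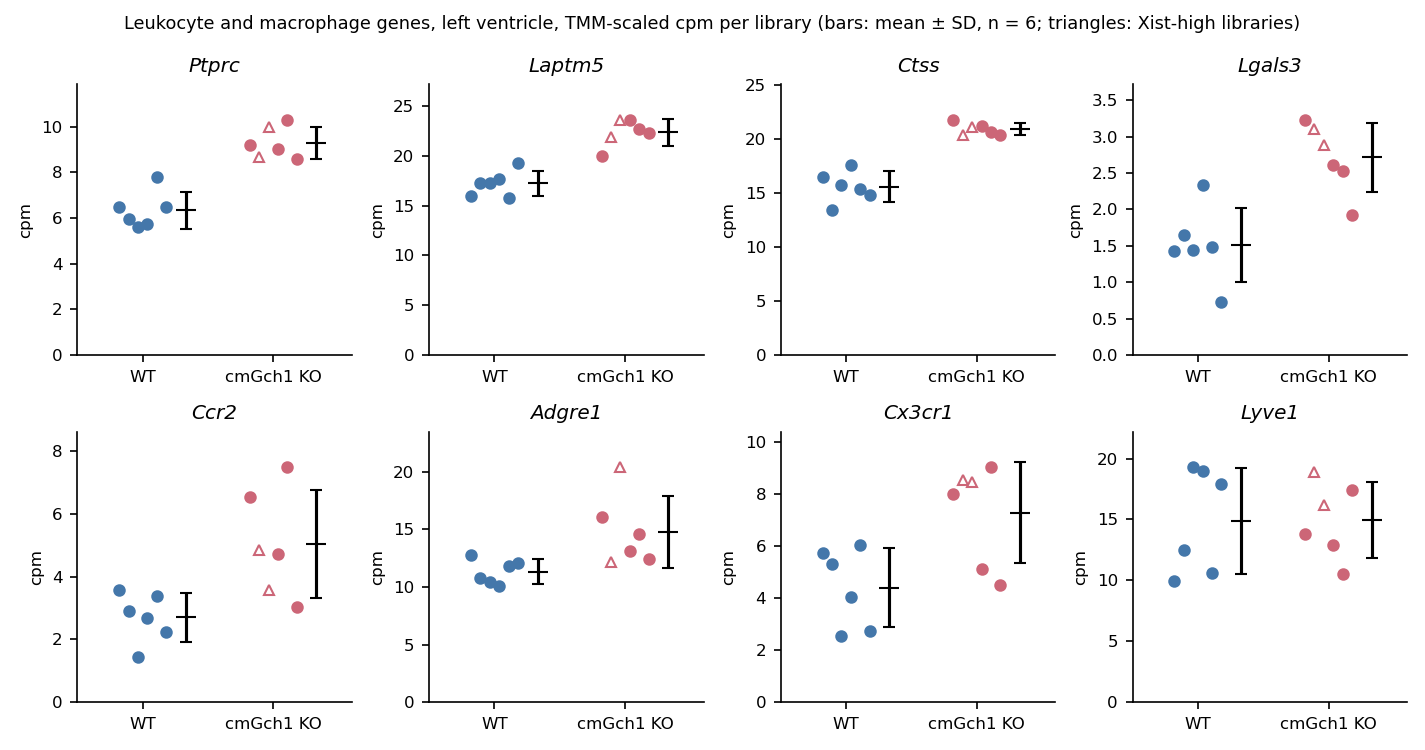
TMM-scaled cpm (y axis) of 8 genes in each WT and cmGch1 KO library (points, in replicate order from left to right); bars are the mean ± SD of 6 libraries and open triangles the 2 Xist-high libraries. Ptprc, Laptm5 and Ctss do not overlap between genotypes, the other 5 genes do, and Lyve1 has means of 14.9 cpm in both.

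The sequences before the start of Ctss and Ptprc are shown because they hold GAGGAA. These letters contain GGAA, the core recognised by ETS factors such as PU.1, the myeloid factor encoded by Spi1. Capitals mark 1 occurrence of GAGGAA in each sequence. They are from RefSeq, build GRCm38.p6, written 5′ to 3′ on the strand of the gene: chr3:95526606-95526785 (plus strand) for Ctss and chr1:138175306-138175485 (minus strand) for the first of 2 Ptprc starts.
Ctss: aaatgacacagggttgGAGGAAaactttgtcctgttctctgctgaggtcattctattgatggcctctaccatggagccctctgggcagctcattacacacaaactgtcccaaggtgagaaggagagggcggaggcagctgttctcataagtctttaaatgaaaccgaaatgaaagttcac
Ptprc: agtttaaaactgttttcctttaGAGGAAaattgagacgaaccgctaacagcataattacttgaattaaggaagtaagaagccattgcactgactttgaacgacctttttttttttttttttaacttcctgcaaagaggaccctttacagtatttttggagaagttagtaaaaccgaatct
The Ptprc stretch lies before the start of most of its transcripts in GENCODE M21, but within the first intron of 1 longer noncoding transcript that begins at base 138175708. The marked letters begin 164 bases before the start in Ctss and 158 in Ptprc. The window of Laptm5 also holds GAGGAA, but lies in the first exon of another annotated transcript and is not shown. Searched on both strands of windows of 300 bases (250 before the start), GAGGAA occurred in 18 of the 31 windows of the 26 members that RefSeq matched, and in 28.3% of all 32851 windows. The longer GAGGAAGT, which contains it, occurred in windows of C1qc, Ctss, F13a1 and Ly6c2 and in 3.2% of all windows. In Ctss the marked letters are not part of it, and no full GAGGAAGT lies in the stretch shown. These letters were chosen with the sequences in view, and a match is not evidence of binding. Spi1 itself had 4.9 ± 0.937 cpm in WT libraries and 6.96 ± 1.1 in cmGch1 KO libraries (log2 fold change 0.50 ± 0.14, adjusted p = 0.135), a gene picked after its values were seen.

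The core identity genes were all higher in the mean and none passed the test. Adgre1, which encodes F4/80, ranged from 10.1 to 12.8 cpm in WT (median 11.3) and from 12.2 to 20.4 cpm in cmGch1 KO (median 13.9), with a log2 fold change of 0.38 ± 0.12 (adjusted p = 0.193). Cd68, a lysosomal glycoprotein, ranged from 3.38 to 6.06 cpm in WT (median 5.33) and from 5.82 to 8.38 cpm in cmGch1 KO (median 6.26), a log2 fold change of 0.39 ± 0.14 (adjusted p = 0.267). For both genes 5 of the 6 WT libraries lay below every cmGch1 KO library. Csf1r, the receptor for the growth factors CSF1 and IL-34, ranged from 30.3 to 35.6 cpm in WT (median 31.2) and from 31.8 to 40.5 cpm in cmGch1 KO (median 37.5), a log2 fold change of 0.21 ± 0.07 (adjusted p = 0.248). Cx3cr1, the fractalkine receptor, ranged from 2.55 to 6.04 cpm in WT (median 4.68) and from 4.52 to 9.04 cpm in cmGch1 KO (median 8.24), a log2 fold change of 0.71 ± 0.24 (adjusted p = 0.219), or 0.45 ± 0.15 with the deposited normalized values. The cmGch1 KO libraries overlapped WT for both, and 4 of them lay above every WT library. For Csf1r, cmGch1 KO replicate 1 did so barely, as it and WT replicate 2 both rounded to 35.6 cpm. Lyz2, lysozyme, had 111 cpm per kilobase of exon over the 12 libraries, the highest level of the 34 genes on that scale, but varied within WT from 85.8 to 186 cpm and had a log2 fold change of 0.28 ± 0.20 (adjusted p = 0.698). Lyz1, a near-identical copy, was at 1.08 cpm in WT and 1.32 in cmGch1 KO by the same counting. Csf1r shares 15.1% of its exon bases with Hmgxb3 on the opposite strand.

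C1qa, C1qb and C1qc encode the chains of C1q, the complement component that binds immune complexes and dying cells, and macrophages make most of it. All 3 genes lie together on chromosome 4 (GRCm38), between 136880129 and 136898803. C1qa ranged from 31.1 to 47.4 cpm in WT (median 39.7) and from 38.0 to 56.9 cpm in cmGch1 KO (median 46.3). C1qb ranged from 30.1 to 51.4 cpm in WT (median 41.4) and from 44.2 to 65.2 cpm in cmGch1 KO (median 48.1). C1qc ranged from 24.2 to 35.4 cpm in WT (median 31.1) and from 32.3 to 43.1 cpm in cmGch1 KO (median 36.7). The genotypes overlapped for each, with log2 fold changes of 0.27 ± 0.12, 0.34 ± 0.14 and 0.30 ± 0.11 and adjusted p values of 0.429, 0.328 and 0.267. The 4 highest libraries were the same for all 3 genes: WT replicate 4 and cmGch1 KO replicates 1, 2 and 3.

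Resident macrophage genes did not pass the test in either direction. Lyve1, a hyaluronan receptor, ranged from 9.95 to 19.3 cpm in WT (median 15.2) and from 10.5 to 18.9 cpm in cmGch1 KO (median 15.0), with a log2 fold change of 0.01 ± 0.19 (adjusted p = 0.995). The sign of that value changed with the filter and with single libraries, and it was -0.12 ± 0.22 among the Xist-low libraries. Lymphatic endothelium also expresses Lyve1, and the summed level of 5 lymphatic markers overlapped between genotypes (78.7 to 129 cpm in WT, 96.1 to 116 in cmGch1 KO). That sum was mostly Prox1 (76.2 ± 15.5 cpm in WT, 75.3 ± 6.6 in cmGch1 KO). Of the 3 tested lymphatic markers 2 were higher in the mean and 1 lower. Pdpn, picked after its values were seen, had a log2 fold change of 0.47 ± 0.22 (edgeR, adjusted p = 0.425). Folr2, a folate receptor, ranged from 6.21 to 9.15 cpm in WT (median 7.39) and from 6.65 to 13.9 cpm in cmGch1 KO (median 9.53), a log2 fold change of 0.36 ± 0.17 (adjusted p = 0.433). Over 63.1% of its exon bases Folr2 overlaps the antisense gene Gm10602, which was at 7.09 cpm in WT and 5.95 in cmGch1 KO, and the strand setting of the counting is not given in the sources used here. Timd4, the phosphatidylserine receptor TIM-4, was low, at 1.26 to 1.86 cpm in WT (median 1.37) and 1.1 to 2.33 cpm in cmGch1 KO (median 1.67), with a log2 fold change of 0.26 ± 0.19 in the looser fit (adjusted p = 0.701).

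Scavenging and clearance genes had no common direction. Mrc1, the mannose receptor CD206, ranged from 19.1 to 26.6 cpm in WT (median 21.2) and from 22.8 to 28.1 cpm in cmGch1 KO (median 26.6), a log2 fold change of 0.24 ± 0.09 (adjusted p = 0.291). F13a1, coagulation factor XIII A, had overlapping libraries and a log2 fold change of 0.17 ± 0.13 (adjusted p = 0.723). Cd163, the haemoglobin scavenger receptor, spanned 8.31 to 21.2 cpm in WT and 9.2 to 19.8 cpm in cmGch1 KO, with a log2 fold change of -0.05 ± 0.22 (adjusted p = 0.974) that was 0.03 when libraries were scaled by size alone. Mertk, a receptor for the uptake of dying cells, spanned 6.67 to 13.8 cpm in WT and 5.33 to 9.99 cpm in cmGch1 KO, with a log2 fold change of -0.21 ± 0.19 (adjusted p = 0.757). Its 2 lowest libraries were the Xist-high ones, and among the Xist-low libraries the value was -0.05 ± 0.19.

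The recruited group rested on Ccr2 alone. Ccr2, the chemokine receptor that brings monocytes into tissue, ranged from 1.44 to 3.57 cpm in WT (median 2.78) and from 3.03 to 7.48 cpm in cmGch1 KO (median 4.78). Of the cmGch1 KO libraries, 5 lay above the highest WT library, but replicate 3 barely so, as it and WT replicate 1 both rounded to 3.57 cpm. Its log2 fold change of 0.88 ± 0.24 was the highest of the 28 tested genes, at an adjusted p of 0.121 by edgeR's quasi-likelihood test. Of the 8 libraries with over 3 cpm of Ccr2 only 2 were WT. It thus passed the filter through cmGch1 KO, and its rank is not independent of that. The DESeq2 Wald test called it (adjusted p = 0.0159), and the value was 0.99 ± 0.27 among the Xist-low libraries (edgeR, adjusted p = 0.231). With the deposited normalized values, on the authors' own scale, the difference was 0.47 ± 0.13 (limma, adjusted p = 0.128). Ly6c2 had only 2 to 10 counts per library, or 0.0913 to 0.37 cpm in WT and 0.0779 to 0.344 cpm in cmGch1 KO, at or near the floor of 3 counts. Its near-identical neighbour Ly6c1, which endothelium expresses, was at 91.9 ± 7.65 cpm in WT and 84.3 ± 16.3 in cmGch1 KO, so the few reads given to Ly6c2 are uncertain and no fold change is given.

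The balance of the recruited marker against the resident and class II genes was compared library by library, as the log2 ratio of Ccr2 to each of 7 genes. Against Lyve1 the mean ratio was -2.47 ± 0.87 (SD) in WT and -1.61 ± 0.75 in cmGch1 KO, a difference of 0.86 (exact permutation test, two-sided, p = 0.0996). Against Timd4 the difference was 0.63 (exact permutation p = 0.0455) and against Folr2 0.56 (p = 0.0519). The 4 class II ratios differed by 0.61 to 0.69, with exact permutation p from 0.0216 for H2-Ab1 to 0.0519 for H2-Eb1. All 7 differences were toward Ccr2 in cmGch1 KO, and the genotypes overlapped in every one. That shared direction follows from the log2 fold change of Ccr2, which was higher than that of each of the 7 genes. It is not a separate result. Adjusted over the 7 ratios, p was 0.0996 for Lyve1 and 0.0606 for the other 6, so none passed. Among the Xist-low libraries the differences were 1.08 for Lyve1, 0.85 for Timd4 and 0.77 for Folr2 (exact permutation p = 0.0857, 0.019 and 0.0286, unadjusted). Those of the 4 class II ratios were 0.49 to 0.65 there, with unadjusted exact permutation p from 0.0762 for H2-Ab1 to 0.162 for H2-Eb1. The ratios share the Ccr2 values and are not independent of each other, and Ccr2 passed the filter through cmGch1 KO.

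Fc receptors and their signalling partners showed scattered differences. Fcer1g, the common γ chain, ranged from 3.16 to 5.36 cpm in WT (median 3.8) and from 4.44 to 7.11 cpm in cmGch1 KO (median 5.22), a log2 fold change of 0.42 ± 0.16 (adjusted p = 0.287), or 0.25 ± 0.09 with the deposited normalized values. Fcgr1, the high-affinity IgG receptor, had 0.50 ± 0.21 in the looser fit (adjusted p = 0.365), with 1.87 to 3.33 cpm in WT and 1.99 to 4.87 in cmGch1 KO. Fcgr3, a low-affinity IgG receptor, had 0.01 ± 0.14 (adjusted p = 0.994), a value whose sign changed with the filter and with 5 single libraries. Tyrobp, the adaptor DAP12, had 0.25 ± 0.20 (adjusted p = 0.729), and Trem2, a lipid receptor that signals through it, had 0.16 ± 0.39 in the looser fit (adjusted p = 0.939). Trem2 spanned 0.502 to 2.05 cpm in WT and 0.607 to 2.86 in cmGch1 KO, and its value was -0.08 without cmGch1 KO replicate 1.

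Of the innate sensing and effector genes other than Ctss, Lgals3 came nearest to separating the genotypes. Lgals3, galectin-3, ranged from 0.731 to 2.33 cpm in WT (median 1.46) and from 1.93 to 3.23 cpm in cmGch1 KO (median 2.75). Only WT replicate 4 reached into the cmGch1 KO range. In the looser fit its log2 fold change was 0.81 ± 0.21 (adjusted p = 0.107). Of the 12 fits that left out 1 library each, 1 called it, the fit without that overlapping library (adjusted p = 0.0496), and over the 12 fits the adjusted p reached 0.24. Among the Xist-low libraries the value was 0.73 ± 0.25 (adjusted p = 0.458), and with the deposited normalized values 0.37 ± 0.09 (limma, adjusted p = 0.0706). Itgam, which encodes CD11b, had 0.42 ± 0.17 (adjusted p = 0.331), with 3.6 to 6.35 cpm in WT and 4.74 to 8.81 in cmGch1 KO. In GENCODE M21, 68.7% of its exon bases belong also to Gm49368 on the same strand, a gene without a row in the deposited counts. Cybb, the NADPH oxidase subunit NOX2 encoded on chromosome X, had 0.32 ± 0.15 (adjusted p = 0.453), and 0.31 ± 0.18 among the Xist-low libraries. Cd14, the lipopolysaccharide co-receptor, had 0.19 ± 0.15 (adjusted p = 0.729) and 0.05 ± 0.15 among the Xist-low libraries. Aif1, which encodes IBA1, had 0.30 ± 0.21 in the looser fit (adjusted p = 0.692), with 1.78 to 4.0 cpm in WT and 1.9 to 4.5 in cmGch1 KO.

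MHC class II genes were abundant and did not pass the test. Per kilobase of exon, Cd74 was at 73.1 cpm over the 12 libraries, H2-Eb1 at 30.7, H2-Ab1 at 20.5 and H2-Aa at 14.3. Cd74 ranged from 94.6 to 148 cpm in WT (median 103) and from 109 to 158 cpm in cmGch1 KO (median 138), a log2 fold change of 0.25 ± 0.13 (adjusted p = 0.488). H2-Aa, the I-A α chain, ranged from 39.5 to 71.2 cpm in WT (median 46.7) and from 42.0 to 85.3 cpm in cmGch1 KO (median 58.4), a log2 fold change of 0.24 ± 0.18 (adjusted p = 0.712). The genotypes overlapped across most of this range. H2-Ab1, the I-A β chain, ranged from 36.2 to 65.2 cpm in WT (median 48.6) and from 42.9 to 73.8 cpm in cmGch1 KO (median 55.4), a log2 fold change of 0.20 ± 0.15 (adjusted p = 0.713). H2-Eb1, the I-E β chain, ranged from 42.5 to 67.9 cpm in WT (median 51.8) and from 46.1 to 89.7 cpm in cmGch1 KO (median 68.1), a log2 fold change of 0.31 ± 0.16 (adjusted p = 0.514).

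The same 4 libraries were the highest for each of the 4 class II genes: WT replicate 1 and cmGch1 KO replicates 1, 5 and 6. The Xist-high libraries were low, with 42.0 and 42.9 cpm of H2-Aa and 46.1 and 47.9 cpm of H2-Eb1, below the WT means of 49.7 and 53.4 cpm. Among the Xist-low libraries the log2 fold changes were 0.38 ± 0.12 for Cd74, 0.43 ± 0.17 for H2-Aa, 0.33 ± 0.16 for H2-Ab1 and 0.51 ± 0.13 for H2-Eb1, all over the values with all 12 libraries. None passed there (adjusted p from 0.199 for H2-Eb1 to 0.723 for H2-Ab1). The class II median was thus 0.41 among the Xist-low libraries against 0.25 among all, while the C1q median was 0.23 against 0.30. The part of the Xist-high libraries in these values was not tested beyond leaving them out.

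**Figure D3:**
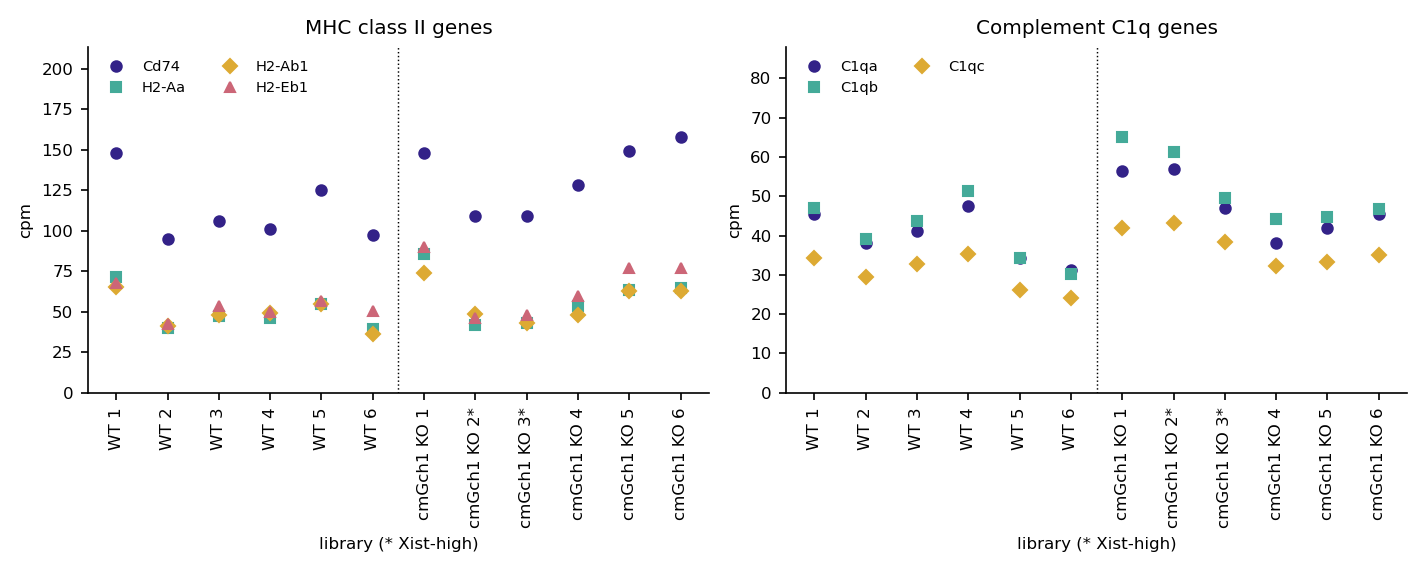
TMM-scaled cpm (y axis) of the 4 MHC class II genes (left) and the 3 C1q genes (right) in each library (x axis, 6 WT left of the dotted line, 6 cmGch1 KO right of it; stars mark the Xist-high libraries). The class II genes are highest in WT replicate 1 and cmGch1 KO replicates 1, 5 and 6, and the C1q genes in WT replicate 4 and cmGch1 KO replicates 1, 2 and 3.

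Class II genes are known to share an upstream module in which an X box, bound by RFX, precedes a Y box, an inverted CCAAT element bound by NF-Y, and CIITA docks on both. Parts of the H2-Aa and H2-Eb1 promoters are shown because these genes moved together across libraries and hold both elements. They are from RefSeq, build GRCm38.p6, at chr17:34287824-34287953 (minus strand) for H2-Aa and chr17:34305737-34305866 (plus strand) for H2-Eb1, ending at the base before the start. Capitals mark GCAAC, part of the X box, then CTGATTGG, the Y box, and in H2-Aa also TGACGTCA, a cyclic AMP response element.
H2-Aa: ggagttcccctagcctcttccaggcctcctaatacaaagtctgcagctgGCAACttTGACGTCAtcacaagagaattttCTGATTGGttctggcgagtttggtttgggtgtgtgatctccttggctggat
H2-Eb1: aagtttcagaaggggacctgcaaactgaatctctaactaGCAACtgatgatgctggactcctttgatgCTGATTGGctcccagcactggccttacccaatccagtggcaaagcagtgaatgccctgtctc
In H2-Aa 25 bases separate GCAAC from CTGATTGG, and in H2-Eb1 24. GCAAC followed by CTGATTGG after 5 to 35 bases occurred in 37 of the 32851 windows (0.113%, both strands searched), and of the 26 matched members only in these 2 genes. CTGATTGG alone occurred in 4.1% of windows and TGACGTCA in 1.79%. The letters were chosen with the sequences in view. Only members with a matched window were searched, for exact letters, so a missing match does not show that another class II gene lacks the module.

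Across the 34 genes, single libraries gave much of the spread. cmGch1 KO replicate 1 was the highest library for 17 genes and WT replicate 6 the lowest for 15. The median coefficient of variation of the tested members was 19.9% in WT and 19.2% in cmGch1 KO, against 12.3% and 13.7% for all tested genes. The groups did not share 1 order of libraries: cmGch1 KO replicate 6 was among the 4 highest for each class II gene and among the 4 lowest for Folr2, Timd4, Fcgr1 and Aif1. Among the Xist-low libraries 26 of the 28 tested genes had a positive log2 fold change (the exceptions there were Lyve1 and Mertk), 10 at an unadjusted p under 0.05 (4.5% of all tested genes), and 0 were called by edgeR.

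**Figure D4:**
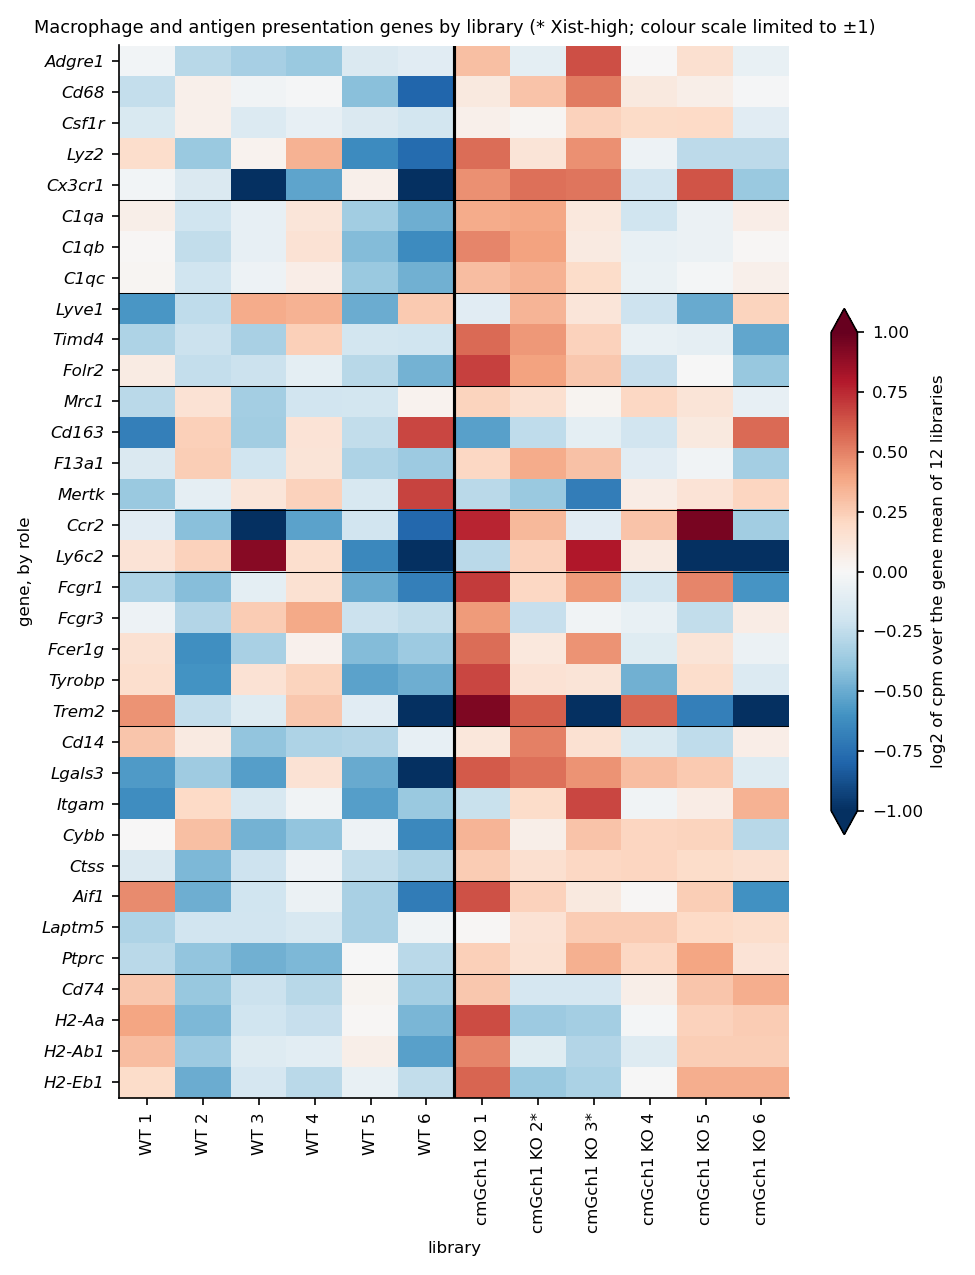
Log2 of cpm over the mean of the gene's 12 libraries (colour, limited to ±1) for 34 genes (rows, by role) in 6 WT and 6 cmGch1 KO libraries (columns; stars mark the Xist-high libraries). Ptprc, Laptm5 and Ctss are evenly higher in cmGch1 KO, WT replicate 6 is the lowest library for 15 genes, and cmGch1 KO replicate 1 the highest for 17.

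Genes that act with these members gave no call. Over all 11225 tested genes, 5241 had a positive log2 fold change, and the share higher with p under 0.05 before adjustment was 7.01%. Of 14 measured class II accessory and processing genes, 6 were tested and 6 were higher in the mean, 1 at an unadjusted p under 0.05, with a median log2 fold change of 0.15. Ctsb and Ctsl, the lysosomal cathepsins at the highest cpm of that list, had 0.07 ± 0.06 and 0.11 ± 0.07. All 13 class I presentation genes were higher in the mean, with a median of 0.18, and 4 had an unadjusted p under 0.05. H2-D1, a classical class I heavy chain, had 0.17 ± 0.10 and Calr, a chaperone of its assembly, 0.17 ± 0.08. Of macrophage growth factors and recruiting chemokines, 8 were tested and 8 were higher in the mean, 3 at an unadjusted p under 0.05, with a median of 0.24. Csf1, the macrophage growth factor, was at 44.8 ± 6.56 cpm in WT and 52.8 ± 7.16 in cmGch1 KO (log2 fold change 0.24 ± 0.11, adjusted p = 0.431). Ccl2, the ligand of the receptor encoded by Ccr2, was at 1.85 ± 1.09 and 3.87 ± 2.03 cpm (1.04 ± 0.40, adjusted p = 0.309) and was picked after its values were seen. Of 9 tested macrophage transcription factors 8 were higher in the mean (median 0.22), of 11 apoptotic cell clearance partners 8 (median 0.17), and of 16 interferon response genes 14 (median 0.17). By edgeR 0 genes of these 6 lists were called, and 2, 5 and 3 genes of the last 3 lists were higher at an unadjusted p under 0.05. Itgb2, which encodes the β2 chain that pairs with CD11b, had the lowest adjusted p of the clearance list (0.0661), at 0.49 ± 0.12, and was picked after its values were seen.

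The summed markers of other leukocytes were low and overlapped between genotypes. A single gene made up most of the T cell, B cell and dendritic cell sums, so these sums say little about the other markers. The sums of 8 T cell markers were 12.7 to 21.4 cpm in WT and 10.5 to 23.2 in cmGch1 KO, mostly Thy1. The other 7 T cell markers did not reach 3 cpm in 6 libraries, and each had a higher mean in cmGch1 KO, with means of 0.0984 to 0.765 cpm in WT and 0.211 to 0.873 cpm in cmGch1 KO. Of these, Cd2, picked after its values were seen, had 0.0457 to 0.31 cpm in WT and 0.303 to 0.6 cpm in cmGch1 KO, and the part of such cells in the rise of Ptprc was not tested. The sums of 6 B cell markers were 6.21 to 14.4 and 7.73 to 16.2 cpm, mostly Ighm, and those of 6 neutrophil markers 0.868 to 3.63 and 1.88 to 5.02 cpm. Natural killer cell, mast cell and dendritic cell sums overlapped likewise. The dendritic cell sum was mostly Zbtb46 (17.1 ± 1.85 cpm in WT, 16.4 ± 1.92 in cmGch1 KO). The remaining dendritic markers did not reach 3 cpm in 6 libraries. All but Siglech (0.237 and 0.236 cpm) had higher means in cmGch1 KO, and the part of such cells in the class II values was not tested. No marker in these lists was at 0 in every library.

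Of the marker lists of non-leukocytes, the cardiomyocyte list alone had sums that did not overlap between genotypes. The summed level of 7 cardiomyocyte markers was 63429 to 68674 cpm in WT and 57610 to 60923 cpm in cmGch1 KO, without overlap. Of these 7 genes 6 were lower in the mean and 0 were called (median log2 fold change -0.18). The 6 fibroblast markers were all higher in the mean (median 0.19), with sums of 701 to 915 cpm in WT and 774 to 981 cpm in cmGch1 KO. The 5 endothelial markers had a median of 0.04 and the 5 red cell markers of -0.39, and the sums of both lists overlapped between genotypes. Of 4 tested atrial markers, Nppa, which ventricles also express under load, rose by a log2 fold change of 1.53 ± 0.30 (adjusted p = 0.024). The other 3 were not called, at 0.11 ± 0.65 for Myl7, 0.17 ± 0.60 for Myl4 and -0.36 ± 0.72 for Sln. The atrial sums varied widely within a genotype, from 74.3 to 547 cpm in WT and from 246 to 742 cpm in cmGch1 KO. Values in cpm are shares of a library, and the part of these markers in the results above was not tested.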

How the data were processed

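Left ventricular RNA of 12 libraries (6 WT, 6 cmGch1 KO) was analysed, grouped by the genotype and replicate number in the labels. According to the methods of the study, the authors made stranded paired-end libraries with dUTP and counted reads with HISAT2, Picard and featureCounts; the submitters' processing notes name GRCm38, HISAT2 and SAMtools. The authors deposited raw counts per Ensembl gene, and a second table of normalized values on a log2-like scale, whose making is not described, used only as an alternative. The strand setting and annotation of the counting are not given in the sources used here. Symbols and coordinates came from GENCODE M21 (26582 of 26921 identifiers, 98.7%).

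Counts were normalized by TMM, and the 11225 genes for which 6 or more libraries exceeded 3 cpm were tested with edgeR 4.0.16 (quasi-likelihood test on genotype, R 4.3.3, Benjamini-Hochberg adjustment over all tested genes, FDR threshold 0.05), after the script was tested on simulated data. Genes under that filter were taken from the fit with the default of filterByExpr (14666 genes). Levels per kilobase used the summed length of a gene's annotated exons. Exact permutation tests used all 924 divisions of the 12 libraries into 6 and 6 and were two-sided. Those on the Xist-low libraries used all divisions of these libraries into groups of the same sizes. The chi-square of counts per degree of freedom was 12.5 to 78.89 over 30 within-genotype pairs of libraries, so no library was a copy of another of its genotype. Pairs across genotypes were not compared in this way. The labels do not name the animal of each library, so p-values measure the spread between these libraries.

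All 34 members are named; of the other lists, genes with an adjusted p under 0.05 and examples of high cpm are named, and a gene named beyond this is marked. The members and lists were chosen with earlier results of these data known. Alternatives were DESeq2 size factors, library size alone, the DESeq2 1.42.0 Wald test, filterByExpr, no filter, a sex-linked covariate, the Xist-low libraries alone, a replicate block, 1 surrogate variable (sva 3.50.0), the deposited normalized values with limma 3.58.1, and each library left out. Depth was 19921398 to 37917806 counts per library, and floors of 3 counts cover counting error only.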

Additional observations from a re-analysis of the deposited data

Results flagged for a closer look

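Of 68 groups of 6 values (each of the 34 genes in each genotype), 1 had a single library far from the others, and chance gives about 1 in 20. Timd4 was at 1.86 cpm in WT replicate 4, against 1.26 to 1.39 cpm in the other 5 WT libraries. The gap was 0.781 of the range of the group, over Dixon's critical value for 6 libraries. The cmGch1 KO libraries spanned 1.1 to 2.33 cpm of this gene.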

How the results depend on the processing

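The median log2 fold change of the tested members was positive under every alternative run, between 0.22 and 0.36, and 0 of them were called lower in any. Over all single genes and alternatives, 682 of 721 values kept their direction and their side of the threshold, 7 lost a call, 10 gained one and 22 changed sign. The count of members called higher (3) was 0 among the Xist-low libraries and 7 with 1 surrogate variable. It was 2 to 3 when each library was left out in turn. Laptm5 lost its call with no filter (adjusted p = 0.0547) and when Xist and Y-linked expression entered as a sex-linked covariate (0.068). With 1 surrogate variable C1qa, C1qb, C1qc, Fcer1g and Lgals3 gained a call (adjusted p = 0.0275, 0.0063, 0.00964, 0.0343 and 0.0232), and by the DESeq2 Wald test Lgals3 did (0.0114). The cause of these changes was not tested.

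Over all tested genes, the 76 called higher became 116 with scaling by library size alone, 218 by the DESeq2 Wald test, 40 with the sex-linked covariate, 20 among the Xist-low libraries, 305 with 1 surrogate variable, and 45 to 116 with each library left out. The 50 called lower became 155 by the DESeq2 Wald test, 24 with the sex-linked covariate, 18 among the Xist-low libraries, 331 with 1 surrogate variable, and 30 to 97 with each library left out. Scaling by library size alone gave 36 lower, and so moved the split of calls toward higher.

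With the deposited normalized values, whose making is not described, 3 members were called. Several differences were smaller by over 1.5 times: besides those of Ccr2, Cx3cr1, Fcer1g and Lgals3, Cd68 was 0.25, Folr2 0.23, Itgam 0.25, Tyrobp 0.16, Cd14 0.11, Fcgr1 0.24, Timd4 0.10, Trem2 0.04 and Aif1 0.15.

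Values near 0 changed sign. Lyve1 was -0.01 with no filter, -0.11 with the sex-linked covariate, -0.12 among the Xist-low libraries, and -0.08 to 0.10 with each library left out. Cd163 was 0.03 with scaling by library size alone, 0.01 with the sex-linked covariate, 0.02 among the Xist-low libraries, and -0.21 to 0.11 with each library left out. Fcgr3 was -0.01 with no filter and -0.09 to 0.10 with each library left out, and Trem2 -0.08 to 0.34.

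The deviations of same-numbered libraries from their genotype means correlated at 0.676, -0.0945, -0.0775, -0.128, 0.401 and 0.509 for replicate numbers 1 to 6. These mixed values do not settle whether the numbers pair the libraries, and the main fit did not pair them. An effect shared by same-numbered libraries was not tested beyond a replicate block. With the replicate block 76 genes were called lower and 112 higher. Of the members, Ccr2 (log2 fold change 0.89, adjusted p = 0.0113) and Lgals3 (0.86, 0.043) were called too. Of the WT libraries, 3 lay nearest to the cmGch1 KO library of their own number. Genes under about 2 cpm, such as Ly6c2, Timd4 and Trem2, are limited by depth.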
